A study of Mus musculus with 7 samples.

Results

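The genes of the Bcl2 family that regulate apoptotic death were followed in mouse liver after deletion of Dicer1, which encodes the enzyme that trims microRNA hairpins into mature microRNAs. The set was listed by gene name, with earlier results of these data known, and held 10 genes: Bcl2, Bcl2l1, Mcl1, Bcl2l11, Bbc3, Pmaip1, Bax, Bak1, Bid and Bmf. Of these, 9 were measured among the 16819 genes compared, each by 1 probe set, and Bax was not analysed here. All mice were males of mixed 129S4 and C57BL/6 strain with floxed Dicer1 alleles (Dicer1 fl/fl), and the series states that the virus was given at 8 to 10 weeks of age. Whether the 0 week controls were injected, and which arrays share a cohort or batch, is not stated in the labels. The virus, AAV8-Ttr-Cre, is an adeno-associated virus of serotype 8 that expresses Cre recombinase from the transthyretin promoter, which is active in hepatocytes. Whole liver was taken after a 4 h fast at 0 weeks (control, n = 3), 2 weeks (n = 2) and 4 weeks (n = 2) and measured on 7 Affymetrix whole-transcript arrays. The labels name no group given a Cre-free virus and no controls of matching time. Loss of Dicer1, the virus, Cre and elapsed time thus cannot be told apart.

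The family decides whether the outer mitochondrial membrane is opened in a dying cell. Pro-survival members (Bcl2, Bcl2l1, Mcl1) hold the effectors Bax and Bak1 in check, and the BH3-only members (Bcl2l11, Bbc3, Pmaip1, Bmf, Bid) relieve that block or activate the effectors directly. In hepatocytes Bcl2l1 and Mcl1 are both needed for survival in mice, and Bid links the death receptors Fas and Tnfrsf1a to the mitochondrial step.

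Several of these genes are known targets of microRNAs, the class of RNA that Dicer1 makes. The mature sequences shown are those of the microRNAs reported to act on the 3 genes that passed the test in at least 1 comparison, and of the miR-29 pair reported for Mcl1, since miR-29a is named in the title of the series. All of these pairs were reported in human cells and stand here as background. Capitals mark the seed (bases 2 to 8), which pairs with the target, and the sequences are from RefSeq (GRCm38.p6).
let-7a-5p (Bcl2l1): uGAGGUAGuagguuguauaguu
let-7c-5p (Bcl2l1): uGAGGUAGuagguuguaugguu
miR-221-3p (Bmf, Bbc3): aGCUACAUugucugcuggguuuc
miR-222-3p (Bmf, Bbc3): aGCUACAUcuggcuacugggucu
miR-125b-5p (Bak1): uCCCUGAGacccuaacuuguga
miR-29a-3p (Mcl1): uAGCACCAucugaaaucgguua
miR-29b-3p (Mcl1): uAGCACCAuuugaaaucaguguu
Within each of the let-7, miR-221-3p with miR-222-3p and miR-29 pairs the seed is the same and the differences lie outside it. The miR-221-3p and miR-222-3p sequences lie close together on the minus strand of the X chromosome, at chrX:19146307-19146329 and chrX:19146901-19146923. Bmf and Bbc3 are thus paired with the same seed, while Bcl2l1, Bak1 and Mcl1 each have another. Mature microRNAs were not measured on these arrays. Of the 18 precursor loci of the 13 microRNAs looked up for the set, 8 were on the array. None passed the test by limma in any comparison. At an unadjusted p under 0.05 there were 1 at 2 weeks and 2 at 4 weeks, against 3862 and 4169 of all 16819 genes. Their log2 fold changes ran from -0.08 to 0.41 at 2 weeks and from -0.16 to 0.48 at 4 weeks.

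The deleted gene was lower after the virus. Dicer1 read 8.73, 8.71 and 8.58 on the log2 scale at 0 weeks, 8.03 and 7.79 at 2 weeks, and 7.97 and 8.05 at 4 weeks. Dicer1 signal fell by 0.76 (SE 0.09, adjusted p = 0.0158) at 2 weeks and by 0.66 (SE 0.09, adjusted p = 0.0159) at 4 weeks. Whole liver holds other cells beside hepatocytes, and in such bulk tissue fewer cells of a type and less RNA per cell cannot be told apart. Among the 8 hepatocyte markers, albumin (Alb) read from 14.46 to 14.52 over the 7 arrays, and the mean of the list was 13.71 to 13.73 at 2 weeks and 13.70 to 13.75 at 4 weeks against 13.81 to 13.84 in controls. The mean of the 8 stellate cell markers was 8.10 to 8.26 at 2 weeks and 8.01 to 8.05 at 4 weeks, against 7.83 to 7.94 in controls. Both means thus differed in 1 direction on all 4 arrays after the virus, but no hepatocyte or stellate marker passed the test at 2 or 4 weeks. All 8 stellate markers had a positive value at 2 weeks. At an unadjusted p under 0.05 by limma there were 5 stellate markers and 1 hepatocyte marker at 2 weeks, against 3862 of all 16819 genes. At 4 weeks there were 1 and 2, against 4169. The hepatocyte difference came mainly from Tat (-0.64 at 2 weeks and -0.60 at 4 weeks), while Apob was at 0.09 and 0.10. Without Tat, a choice made after seeing the data, the mean of the other 7 was 13.736 to 13.772 at 2 weeks and 13.750 to 13.766 at 4 weeks. Controls were at 13.775 to 13.790, so all 4 arrays after the virus still lay below them, by less. The means of the Kupffer, endothelial, lymphocyte, neutrophil and bile duct lists overlapped with controls at 2 weeks. At 4 weeks the endothelial mean was 9.10 to 9.22, against 8.98 to 9.05 in controls, and the bile duct mean (4 of 7 markers measured) was 6.82 to 6.92, against 6.68 to 6.77 in controls. Single markers that passed were Clec4g (endothelial, 0.60) and Sox9 (bile duct, 0.43) at 4 weeks, and Tat (hepatocyte, -0.62), Pdgfrb (stellate, 0.31) and Sox9 (0.37) after Cre. The part of these cell types in the results was not tested. A value repeated exactly on 3 or more of the 7 arrays was found in 38.2% of genes, the members Bcl2, Bbc3, Pmaip1 and Mcl1 among them, so that an SD of 0 in a pair of arrays comes from identical deposited values.

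**Figure D1:**
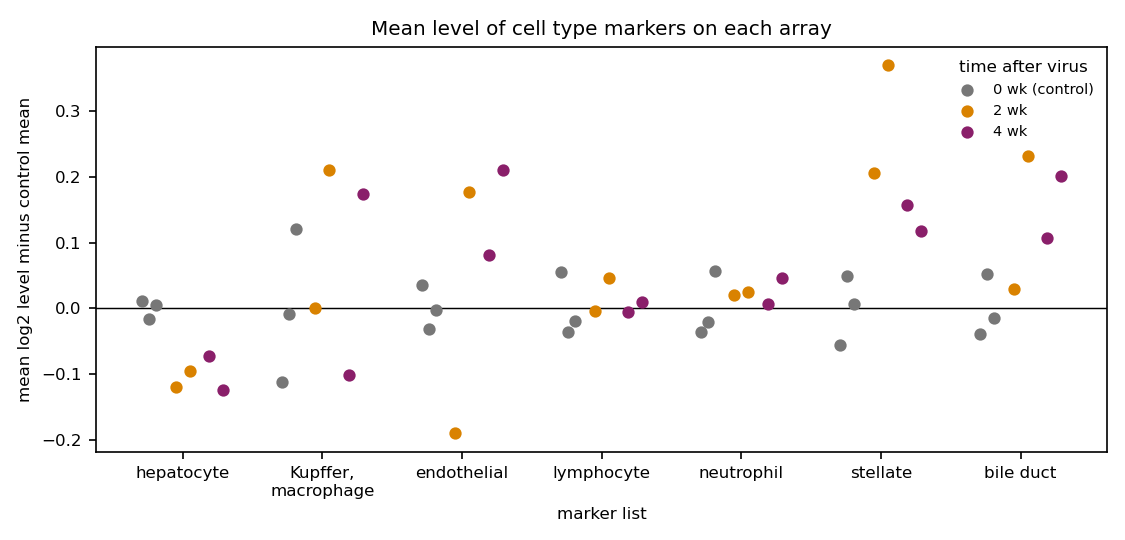
Mean log2 level of each cell type marker list on each of the 7 arrays, minus its mean over the 3 control arrays, with 1 point per array and colours for 0, 2 and 4 weeks after the virus. The hepatocyte list lies below and the stellate list above the controls on all 4 arrays after the virus.

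Over the 9 measured members, 1 passed the test at 2 weeks (Bcl2l1, higher) and 1 at 4 weeks (Bmf, higher). The mean of both times, called after Cre here, gave 3, all higher: Bcl2l1, Bmf and the effector Bak1. With all arrays, no member passed as lower in any comparison. The test was limma's on log2 values with Benjamini-Hochberg adjustment over all genes and a threshold of 0.05. Of all genes, 5.93% passed at 2 weeks, 9.77% at 4 weeks and 12.9% after Cre. A single member of 9 at either time is close to that background. The arrays of the 2 groups did not overlap for 4 members at 2 weeks (34.9% of all genes), 2 at 4 weeks (39.8%) and 2 after Cre (25.1%). The median log2 fold change of the members was 0.02 at both times, against -0.00237 at 2 weeks and 0.01 at 4 weeks over all genes. Of the 9 members, 5 had a positive and 4 a negative value at each time, and at 2 weeks they ran from -0.55 to 0.52.

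**Figure D2:**
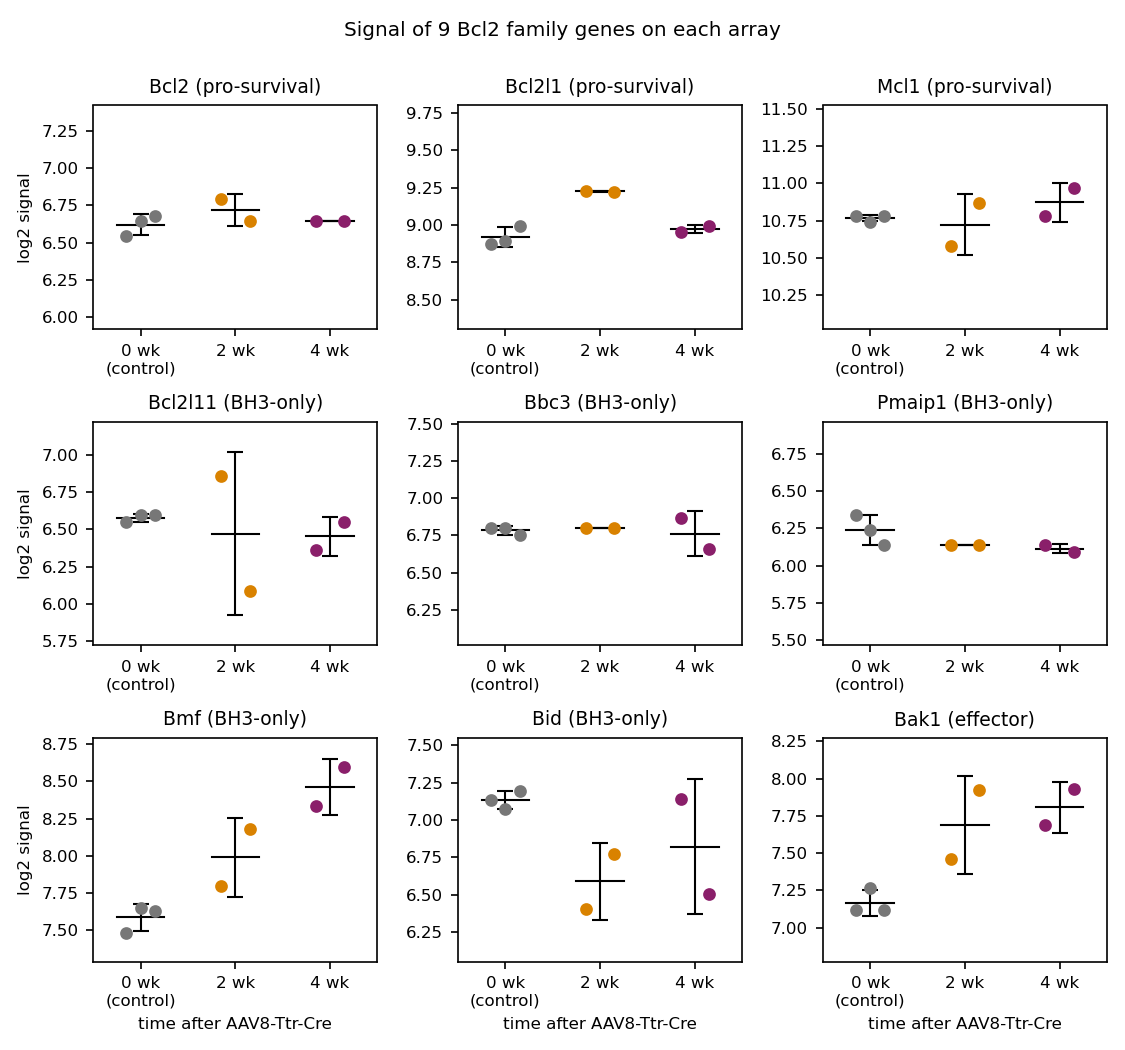
Deposited log2 signal of the 9 measured members on each array (points) at 0, 2 and 4 weeks after AAV8-Ttr-Cre, with the mean (line) and SD (bars, n = 3, 2 and 2). Each panel has its own range of levels on an equal span. Bmf is higher on both 4 week arrays than on any other, Bcl2l1 stands highest at 2 weeks, and the 2 week arrays of Bcl2l11 lie on either side of the controls.

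Among the pro-survival members, only Bcl2l1 passed, and only in 2 of the 3 comparisons with controls. Bcl2l1 encodes Bcl-xL, which binds BH3-only proteins and Bak1 at the mitochondrion. Its signal (probe set 10488655) was 8.87, 8.89 and 8.99 at 0 weeks, 9.23 and 9.22 at 2 weeks, and 8.95 and 8.99 at 4 weeks. Both 2 week arrays lay above every other array, and the 4 week arrays lay within the range of the controls up to a shared value of 8.99. At 2 weeks the mean was 9.23 ± 0.0045 (SD, n = 2), against 8.92 ± 0.06 (SD, n = 3) in controls. Bcl2l1 rose by 0.30 on the log2 scale (SE 0.05, 95% interval 0.18 to 0.43, adjusted p = 0.0335), which is 1.24-fold. At 4 weeks the log2 fold change was 0.05 (SE 0.05, adjusted p = 0.589), with an interval from -0.07 to 0.18. After Cre it rose by 0.18 (SE 0.04, adjusted p = 0.0497), with overlapping arrays. Leaving out any 1 of the 7 arrays took the adjusted p at 2 weeks to between 0.0541 and 0.110, with log2 fold changes of 0.28 to 0.34, and the after Cre value to between 0.0569 and 0.154. The after Cre call was also lost in 7 of the 9 other settings, among them quantile normalization and median centring (adjusted p up to 0.107), so that most settings called only Bmf and Bak1 after Cre.

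Bcl2, the founding member of the family, had low signals of 6.54, 6.64 and 6.67 at 0 weeks, 6.79 and 6.64 at 2 weeks, and 6.64 on both arrays at 4 weeks. The same value recurred on 4 arrays, and the groups overlapped. Its log2 fold changes were 0.10 (SE 0.07, adjusted p = 0.434) at 2 weeks and 0.02 (SE 0.07, adjusted p = 0.883) at 4 weeks. Mcl1, a short-lived protein that restrains Bak1, was the brightest of the set, at 10.78, 10.74 and 10.78 at 0 weeks, 10.58 and 10.87 at 2 weeks, and 10.78 and 10.97 at 4 weeks. One array at 2 weeks lay below and the other above all controls. Its log2 fold changes were -0.04 (interval -0.29 to 0.21, adjusted p = 0.846) at 2 weeks and 0.11 (interval -0.15 to 0.36, adjusted p = 0.589) at 4 weeks.

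Of the 5 BH3-only members, Bmf alone passed. Bmf is known for its binding to the dynein light chain of motor complexes on actin, from which stress releases it. Its signal (probe set 10486112) was 7.48, 7.65 and 7.63 at 0 weeks, 7.80 and 8.18 at 2 weeks, and 8.33 and 8.60 at 4 weeks. No 2 groups overlapped, and the order of the means followed the weeks after the virus. Means were 7.59 ± 0.09 (SD, n = 3) in controls, 7.99 ± 0.27 (SD, n = 2) at 2 weeks and 8.46 ± 0.19 (SD, n = 2) at 4 weeks. At 4 weeks Bmf rose by 0.88 (SE 0.14, 95% interval 0.53 to 1.22, adjusted p = 0.0221), or 1.84-fold. In size that difference was at or above those of 97.5% of all genes. At 2 weeks its log2 fold change was 0.40 (SE 0.14, interval 0.06 to 0.75), and the adjusted p of 0.163 missed the threshold. After Cre it rose by 0.64 (SE 0.12, adjusted p = 0.0243). The 4 week call was lost without any 1 of the control or 4 week arrays, at an adjusted p of up to 0.119, with the log2 fold change between 0.74 and 1.01. The after Cre call held in 2 of the 7 omissions, with an adjusted p of up to 0.0924.

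Bid and Bcl2l11 were the members whose arrays differed most within a group. Bid is cut by caspase 8 to a fragment that moves to mitochondria. Its signal was 7.13, 7.08 and 7.20 at 0 weeks, 6.41 and 6.77 at 2 weeks, and 7.14 and 6.50 at 4 weeks. Both 2 week arrays lay below the controls, while 1 of the 4 week arrays lay among them and the other below. Its log2 fold changes were -0.55 (SE 0.20, interval -1.05 to -0.04, adjusted p = 0.190) at 2 weeks and -0.31 (SE 0.20, adjusted p = 0.423) at 4 weeks, neither past the threshold. Without replicate 2 of the 4 week group the 4 week value was 0.01, and without replicate 1 it was -0.63.

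Bcl2l11 encodes Bim, which binds all pro-survival members. Its signal was 6.55, 6.59 and 6.60 at 0 weeks, 6.86 and 6.09 at 2 weeks, and 6.36 and 6.55 at 4 weeks. Control arrays lay within a narrow range, and the 2 week arrays lay far apart on either side of it. Its log2 fold changes were -0.11 (SE 0.22, adjusted p = 0.816) at 2 weeks and -0.13 (SE 0.22, adjusted p = 0.785) at 4 weeks. Without replicate 1 of the 2 week group the 2 week value was -0.49, and without replicate 2 it was 0.28, so the sign at 2 weeks rests on which array is kept. Each of these values rests on a single 2 week array, assumed to vary like the other groups. After Cre the value was -0.12 (adjusted p = 0.726) with all arrays and -0.31 without that replicate 1.

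Bbc3 and Pmaip1 encode Puma and Noxa, both known as targets of p53. Bbc3 read 6.80, 6.80 and 6.75 at 0 weeks, 6.80 on both arrays at 2 weeks, and 6.87 and 6.66 at 4 weeks. Pmaip1, the dimmest of the set, read 6.34, 6.24 and 6.13 at 0 weeks, 6.13 on both arrays at 2 weeks, and 6.13 and 6.09 at 4 weeks. For both genes the groups overlapped, and 4 arrays carried 1 identical value. The log2 fold changes of Bbc3 were 0.02 (interval -0.15 to 0.19) at 2 weeks and -0.02 (interval -0.19 to 0.15) at 4 weeks. Those of Pmaip1 were -0.10 (interval -0.27 to 0.06) and -0.12 (interval -0.29 to 0.04) at the same times. Adjusted p-values of these 2 genes were between 0.332 and 0.920.

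The effector Bak1 forms pores in the outer mitochondrial membrane once activated. Its signal (probe set 10449303) was 7.12, 7.26 and 7.12 at 0 weeks, 7.46 and 7.92 at 2 weeks, and 7.69 and 7.93 at 4 weeks. All 4 arrays after the virus lay above all 3 controls. Means were 7.17 ± 0.08 (SD, n = 3) in controls, 7.69 ± 0.33 (SD, n = 2) at 2 weeks and 7.81 ± 0.17 (SD, n = 2) at 4 weeks. Differences from control on the log2 scale were 0.52 (SE 0.15, interval 0.15 to 0.90, adjusted p = 0.112) at 2 weeks and 0.64 (SE 0.15, interval 0.26 to 1.02, adjusted p = 0.0580) at 4 weeks, and neither passed. Over both times Bak1 rose by 0.58 (SE 0.13, adjusted p = 0.0392). Leaving out replicate 1 of the 2 week group was the only omission of 1 array that kept this call, and without other arrays the adjusted p reached 0.141. At 2 weeks its log2 fold change was 0.76 without that array and 0.29 without replicate 2. At 4 weeks it passed in 5 of the 10 other settings, quantile normalization and the 2 groups alone among them. The adjusted p-values of limma ran from 0.0246 to 0.105 over these settings. Leaving out either 2 week array only repeated the fit of the 2 groups alone. Over the 7 omissions the 4 week log2 fold change ran from 0.52 to 0.76.

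**Figure D3:**
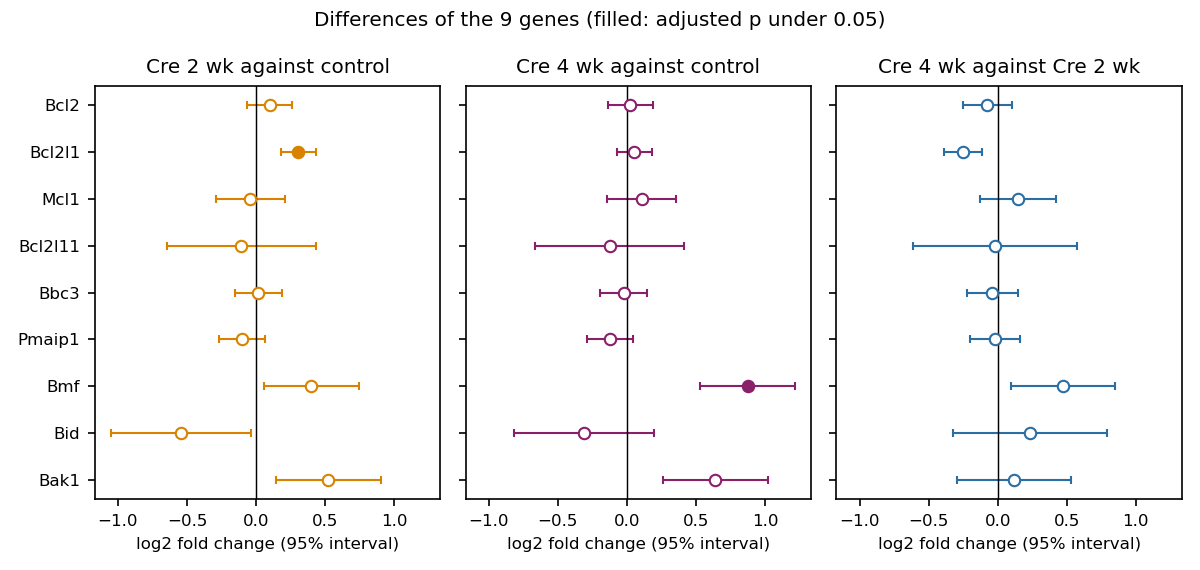
Log2 fold changes of the 9 members with 95% intervals of the limma fit, for 2 weeks against control, 4 weeks against control and 4 weeks against 2 weeks, with filled points for an adjusted p under 0.05. Bcl2l1 at 2 weeks and Bmf at 4 weeks are filled, the intervals of Bcl2l11 and Bid are the widest, and none is filled between the times.

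Between the 2 times no member passed limma's test, and of all genes 0.00595% did, which is a single gene. At an unadjusted p under 0.05 there were 2 members, in opposite directions, against 1250 of all 16819 genes. Bcl2l1 was 0.25 lower on the log2 scale at 4 weeks than at 2 weeks (SE 0.06, unadjusted p = 0.00464, adjusted p = 0.424). Bmf was 0.48 higher at 4 weeks (SE 0.15, unadjusted p = 0.0220, adjusted p = 0.575). These were also the 2 members whose 4 week and 2 week arrays did not overlap, against 26.6% of all genes. The other 7 members had log2 differences from -0.08 to 0.23 between the times, with overlapping arrays. The 2 genes were not tested against each other.

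**Figure D4:**
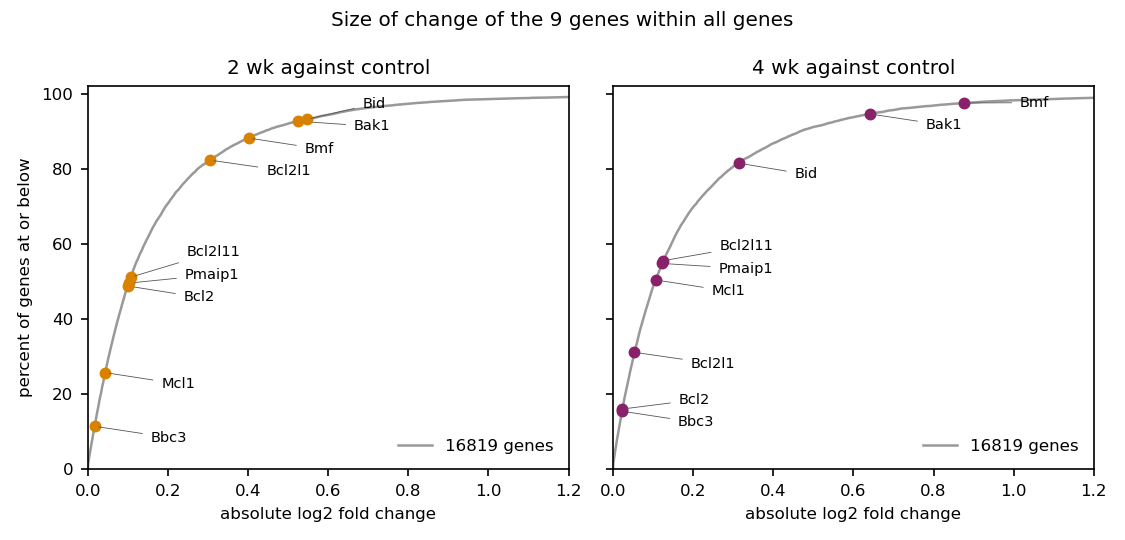
Share of the 16819 genes with an absolute log2 fold change at or below the value on the horizontal axis (grey line), with the 9 members placed on it (points), for 2 weeks and 4 weeks against control. At 2 weeks Bid, Bak1, Bmf and Bcl2l1 lie above the 80% mark, at 4 weeks Bmf, Bak1 and Bid do, and the remaining members lie at 55.5% or below.

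By size, the members fell into 2 groups. At 2 weeks Bid, Bak1, Bmf and Bcl2l1 had absolute log2 fold changes at or above those of 93.1%, 92.6%, 88.1% and 82.3% of all genes. The other 5 lay between 11.4% and 51.1%. At 4 weeks Bmf, Bak1 and Bid stood at 97.5%, 94.6% and 81.5%, and Bcl2l1 was at 31.1%. The median absolute log2 fold change of the members was 0.11 at 2 weeks and 0.12 at 4 weeks, against 0.10 at both times over all genes. Bid stood first by size at 2 weeks without passing the test. Its SE of 0.20 draws on the spread in all 3 groups, and its SD was 0.06 in controls, 0.26 at 2 weeks and 0.45 at 4 weeks.

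The genes whose course over the 7 arrays was closest to that of each member past the threshold were found by the root mean square difference in log2 signal, after the control mean of each gene was subtracted, among 16818 other genes. For Bcl2l1 these were Ier5 (0.0373), Pnp (0.0416) and Colec10 (0.0420). Bmf had no neighbour as close, with Tmx3 (0.120), Ggps1 (0.120) and Erlin2 (0.121) first. The measure is not scaled to the size of a gene's own change, which reached 0.88 for Bmf and 0.30 for Bcl2l1. Distances of different members are thus not compared as how unusual a course is. For Bak1 the closest were Vipas39 (0.0587), Klhl28 (0.0621) and Tug1 (0.0628). All 3 neighbours of Bmf had a larger log2 fold change at 2 weeks than Bmf (0.56 to 0.58 against 0.40) and a smaller one at 4 weeks (0.75 to 0.84 against 0.88).

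Another 9 of 15 listed Bcl2 family genes were measured, and 1 of them passed, as lower. The shares over all genes were 5.93% at 2 weeks and 9.77% at 4 weeks. Bnip3, a BH3-like protein of mitochondria known for its part in mitophagy, read 10.71, 10.55 and 10.52 at 0 weeks, 9.82 and 9.80 at 2 weeks, and 9.72 and 9.89 at 4 weeks. All 4 arrays after the virus lay below the controls by more than the spread of either group. Bnip3 fell by 0.79 at 2 weeks (SE 0.08, adjusted p = 0.0123) and by 0.79 at 4 weeks (SE 0.08, adjusted p = 0.00900). The brightest of those that did not pass were Bcl2l13 (-0.07 at 2 weeks and -0.08 at 4 weeks) and Bok (0.03 and 0.10). The median of this list was -0.03 at both times.

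Of 18 listed regulators and partners of the family, 16 were measured. At 2 weeks 2 rose and 1 fell, at 4 weeks 1 rose and 1 fell, and the rest did not pass. Of all genes 5.93% passed at 2 weeks and 9.77% at 4 weeks. Jun, a subunit of the transcription factor AP-1, had the largest difference on any of these lists. It read 8.18, 8.02 and 7.83 at 0 weeks, 10.21 and 10.03 at 2 weeks, and 10.54 and 10.29 at 4 weeks. Jun signal rose by 2.11 (SE 0.13, adjusted p = 0.00402) at 2 weeks and by 2.40 (SE 0.13, adjusted p = 0.00267) at 4 weeks. Vdac2, a channel of the outer mitochondrial membrane that binds Bak1, read 10.24, 10.40 and 10.28 at 0 weeks, 9.72 and 9.67 at 2 weeks, and 9.83 and 9.76 at 4 weeks. Vdac2 fell by 0.61 (SE 0.06, adjusted p = 0.0130) at 2 weeks and by 0.51 (SE 0.06, adjusted p = 0.0139) at 4 weeks, while Bak1 itself had higher values. Ywhaz, a 14-3-3 protein that binds phosphorylated Bad, rose by 0.30 at 2 weeks (SE 0.06, adjusted p = 0.0467) and differed by 0.20 at 4 weeks (adjusted p = 0.102). Vdac1 and Usp9x, the brightest that did not pass, lay at -0.05 and 0.02 at 2 weeks.

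Of 12 listed death receptor pathway genes, 11 were measured, and 1 of them, Tnfrsf1a, rose at both times. The shares past the threshold over all genes were 5.93% at 2 weeks and 9.77% at 4 weeks. Tnfrsf1a, the main receptor for tumour necrosis factor, read 9.76, 9.87 and 9.88 at 0 weeks, 10.24 and 10.32 at 2 weeks, and 10.21 and 10.16 at 4 weeks. Tnfrsf1a rose by 0.44 (SE 0.06, adjusted p = 0.0195) at 2 weeks and by 0.35 (SE 0.06, adjusted p = 0.0231) at 4 weeks. Fas, the receptor of Fas ligand, read 8.31, 8.20 and 7.96 at 0 weeks, 8.78 and 9.67 at 2 weeks, and 8.95 and 9.10 at 4 weeks. All arrays after the virus lay above the controls, with a wide gap between the 2 arrays at 2 weeks. Fas passed only over both times (0.97, SE 0.22, adjusted p = 0.0447), and not at 2 weeks (1.07, adjusted p = 0.0778) or 4 weeks (0.87, adjusted p = 0.108). Casp8 and Cflar, the protease and its inhibitor at these receptors, lay between -0.04 and 0.04.

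Of 15 listed apoptosome and caspase genes, 13 were measured. None passed limma's test at 2 weeks, where 4 had an unadjusted p under 0.05, against 3862 of all 16819 genes. Casp6, an executioner caspase, alone passed at 4 weeks, against 9.77% of all genes. It read 8.36, 8.38 and 8.48 at 0 weeks, 8.53 and 8.61 at 2 weeks, and 8.75 and 8.82 at 4 weeks. Casp6 rose by 0.38 at 4 weeks (SE 0.06, adjusted p = 0.0199), and its value at 2 weeks was 0.16 (adjusted p = 0.168). Aifm1 and Xiap, the brightest that did not pass, were at 0.09 and 0.19 at 2 weeks and at 0.27 and 0.03 at 4 weeks.

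Of these calls, those of Jun held at 2 weeks and at 4 weeks whichever 1 of the 7 arrays was left out. At either time, leaving out 1 array of the other time repeated the fit of the 2 groups alone. The 7 omissions at 1 time are thus not 7 separate checks. Bnip3 held in 4 of the 7 omissions at 2 weeks and 5 at 4 weeks, Vdac2 in 5 and 4, and Tnfrsf1a in 1 and 2. Casp6 at 4 weeks held in 2, Ywhaz at 2 weeks in 1 and Fas after Cre in 2. Dicer1 itself held in 1 at 2 weeks and 2 at 4 weeks, and in 7 of 7 after Cre. Of the cell type markers, Clec4g at 4 weeks held in 0 of the 7 omissions (0.42 to 0.77, adjusted p 0.0733 to 0.162), Sox9 in 1 at 4 weeks and 1 after Cre, and Tat and Pdgfrb after Cre in 2 each.

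**Figure D5:**
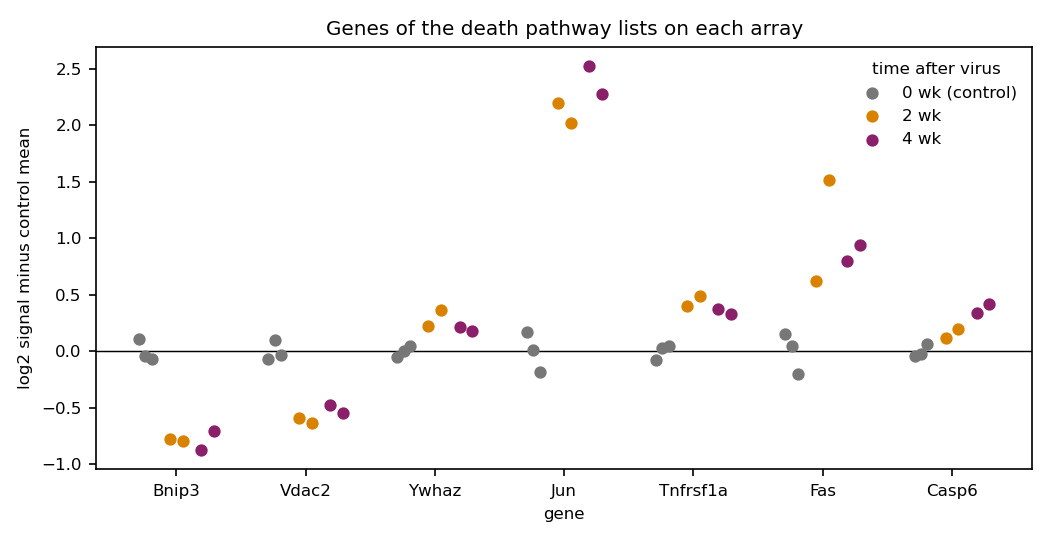
Log2 signal minus the control mean on each array (points) for the 7 genes that passed the test in at least 1 comparison on the lists of other family members, regulators and partners, death receptors and caspases. Bnip3 and Vdac2 lie below 0 and Jun, Tnfrsf1a, Fas, Ywhaz and Casp6 above it on all 4 arrays after the virus.

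Promoters of the set were read from RefSeq (GRCm38.p6), as windows from 250 bases before to 50 after a start. The chromosome that carries Pmaip1 was left out of this search, so the promoter of Pmaip1 was not examined. There were 16 windows for the other 9 genes. The shares given for all windows leave out the same chromosome. Since Jun rose, the AP-1 motif TGANTCA was searched on both strands. It was found in 0 of the 16 windows, against 7.81% of all 32851 windows. The Foxo motif GTAAACA was found in 2 windows (3.65% of all), of Bcl2l11 and Bbc3, which are both known as Foxo targets. Capitals mark the match, in the first on the strand of the gene and in the second on the other strand.
Bcl2l11, position -227 from a start, chr2:128125796-128125832, plus strand: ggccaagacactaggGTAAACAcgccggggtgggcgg
Bbc3, position -167 from a start, chr7:16310079-16310115, plus strand: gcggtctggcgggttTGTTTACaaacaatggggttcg
Neither gene passed the test in any comparison with all arrays. The CCAAT box (CCAAT) was in 5 windows of Bcl2l11, Bbc3 and Bmf (37.4% of all windows), and the GC box (GGGCGG) was in 10 windows of 7 genes (35.7%). Neither letter string was in a window of Bcl2l1 or Bak1. The E-box (CACGTG) was in 2 windows, of Bbc3 and Bax (7.15%). The TATA box (TATAAA) was in 0 of the 16 (13.6% of all). These matches describe the letters in the windows and show no binding.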

How the data were processed

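RNA of 7 whole livers was measured on 1 array each. The authors deposited 1 log2 signal for each probe set and array, which was used unchanged, with the scale read from the range (3.15 to 14.7). GCOS 1.4 is named in the submitters' processing notes. How the signals were summarised and normalized was not given in the sources used here. Array medians were 7.07 to 7.09. No detection call was given, so that a dim gene cannot be told from one that is not expressed. The number of arrays limits the precision. Titles mark the samples of each group as biological replicates.

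Of 21093 probe sets, the platform annotation named 17709 with 1 gene symbol and 187 with several, and left 3197 unnamed. RefSeq (GRCm38.p6) held 17648 of the named ones and changed 0 symbols. For the 463 genes with several probe sets the one with the highest mean was kept, leaving 16819 genes. Log2 values of different genes are not compared as amounts, since probes differ.

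A model with the 3 groups was fitted to every gene with limma 3.58.1 in R 4.3.3 (lmFit, eBayes; 4 residual and 1.69 prior degrees of freedom). Tests were two-sided with Benjamini-Hochberg adjustment over all genes. The steps were tested on simulated data. The named genes were all members, Dicer1, up to 4 passing and 2 non-passing (brightest) genes of each list, and the 3 nearest courses of each passing member. The members and lists were chosen with earlier results of these data known. Alternatives were other normalizations, filters, probe set rules and eBayes settings, a replicate block, the 2 groups alone and leaving out each array.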

Additional observations from a re-analysis of the deposited data

How the results depend on the processing

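Leaving out 1 array took away 30 of the 35 calls of a member and 88 of the 175 calls of another named gene. It also left fewer degrees of freedom, and a 2 or 4 week group of 1 array was assumed to vary like the other groups. For 1 time against control, leaving out an array of the other time gave the same fit as the 2 groups alone. The counts over omissions thus hold repeats of 1 fit. Under the other settings 12 of 47 and 31 of 239 such calls were lost, and no called value changed sign in any setting. Members called at 2 weeks numbered 0 to 2 over the 7 omissions, 0 in a fit of the 2 groups alone and 1 in the other settings except the block. At 4 weeks they numbered 0 to 2 over the omissions. There were 2 (Bmf and Bak1) under quantile normalization, median centring, omission of dim genes, a fit of the 2 groups alone, and omission of genes with a value repeated on 3 or more arrays, which was chosen after seeing the data. After Cre they numbered 0 to 3 over the omissions, 2 (Bmf and Bak1) in 6 of the 9 other settings and 3 in 2 of them. All genes called ran over the omissions from 41 to 2168 at 2 weeks, 63 to 1948 at 4 weeks, 0 to 0 between the times and 570 to 2788 after Cre, against 997, 1643, 1 and 2171 with all arrays. The fit of 2 groups alone gave 276 genes at 2 weeks and 0 between the times. Without the genes with repeated values 1668 were called at 2 weeks and 3 between the times. Deviations from the group means had correlations of -0.0651 to 0.111 between arrays with the same replicate number. In a group of 2 arrays the deviations are equal and opposite, so these values cannot show whether the numbers mark a batch. With the replicate number as a block, 0 members were called in any comparison. All genes called were then 0, 2, 0 and 5 at 2 weeks, at 4 weeks, between the times and after Cre. The adjusted p of limma was then 0.127 for Bcl2l1 at 2 weeks, 0.0844 for Bmf at 4 weeks and 0.0844 for Bak1 after Cre. The block leaves fewer residual degrees of freedom. Replicate 3 exists only among the controls, so that the block takes up that array. The lost calls thus do not show an effect of the replicate number.

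Values that did not pass changed sign 18 times when 1 array was left out, and the cause was not tested. Their ranges at 2 weeks were -0.189 to 0.104 for Mcl1, -0.492 to 0.278 for Bcl2l11 and -0.0723 to 0.141 for Bok. At 4 weeks they were -0.0156 to 0.0504 for Bcl2, -0.127 to 0.0827 for Bbc3 and -0.632 to 0.00604 for Bid. Between the times they were -0.403 to 0.366 for Bcl2l11, -0.115 to 0.348 for Bak1, -0.0860 to 0.552 for Bid and -0.144 to 0.0662 for Bbc3. After Cre they were -0.0553 to 0.0496 for Bbc3, -0.0418 to 0.105 for Mcl1 and -0.309 to 0.0763 for Bcl2l11.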
